A study of Mus musculus with 2 samples.

Results

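Calcium entry through the plasma membrane turns on NFAT transcription factors in T cells, and 9 genes of this route were compared between Treg cells with *Usp21* deleted (USP21-ΔTreg) and WT Treg cells. They were taken by name from the deposited gene table, which held all 9 among its 16830 genes. They comprise the calcium sensors *Stim1* and *Stim2*, the channel gene *Orai1*, the calcineurin genes *Ppp3ca*, *Ppp3cb* and *Ppp3r1*, and the NFAT genes *Nfatc1*, *Nfatc2* and *Nfatc3*. USP21-ΔTreg cells came from *Usp21* fl/fl mice that carry Foxp3-YFP-Cre, and WT Treg cells from mice with Foxp3-YFP-Cre and unmodified *Usp21*. Cre and YFP were thus expressed from the *Foxp3* locus in both genotypes. All mice were C57BL/6 and 6 months old by the labels. The cells were sorted as CD4+CD25hiYFP+ from spleen and lymph nodes, and how many animals went into a library is not given in the sources used here. By the methods the mice were female. Each genotype was represented by a single library without replicates. Nothing could therefore be tested, and what differs below differs between these libraries. *Usp21* itself had 4.56 FPKM (fragments per kilobase of transcript, scaled to library size) in the USP21-ΔTreg library, against 11.8 FPKM in the WT library, and where on the gene these fragments lie was not analysed.

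When the T cell receptor empties the calcium store of the endoplasmic reticulum, the sensors STIM1 and STIM2 move towards the plasma membrane and open ORAI channels. The calcium that enters binds calmodulin and activates the phosphatase calcineurin, which consists of a catalytic A subunit and a regulatory B subunit. Calcineurin removes phosphates from NFAT proteins, which then enter the nucleus and act with partners such as AP-1 or FOXP3. In Treg cells, NFAT and FOXP3 are known to bind DNA together.

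No gene of the 9 differed 2-fold between the genotypes. Among all 10948 genes averaging 1 FPKM or more, 7.78% were 2-fold or more above WT and 6.20% as far below it. All 9 genes passed that filter. Their log2 ratios (USP21-ΔTreg over WT, after adding 0.1 FPKM) lay from −0.27 to 0.96 with a median of 0.47, beside a median of 0.20 over all genes kept. On the scaled counts, which are the fragment numbers the authors adjusted between the libraries, none was 2-fold apart either (4.34% of all genes higher and 7.93% lower), and their median was −0.04 beside −0.01. Of the 9 genes, 7 were above 0 on FPKM and 4 on scaled counts, so the direction of the set depended on the scale. The median over all genes kept moved down between the scales too. The share of all genes above 0 was not computed, here or for the lists below. The genes higher on both scales were *Nfatc1*, *Nfatc3*, *Ppp3ca* and *Stim1*, and those lower on both were *Nfatc2* and *Orai1*. At a limit of 1.5-fold, *Nfatc1*, *Nfatc3* and *Ppp3ca* were higher on FPKM and none was lower, where 22.9% of all genes were higher and 12.1% lower. On scaled counts *Nfatc1* alone of the 9 passed 1.5-fold upwards and none downwards, against 13.0% and 16.6% of all genes.

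**Figure D1:**
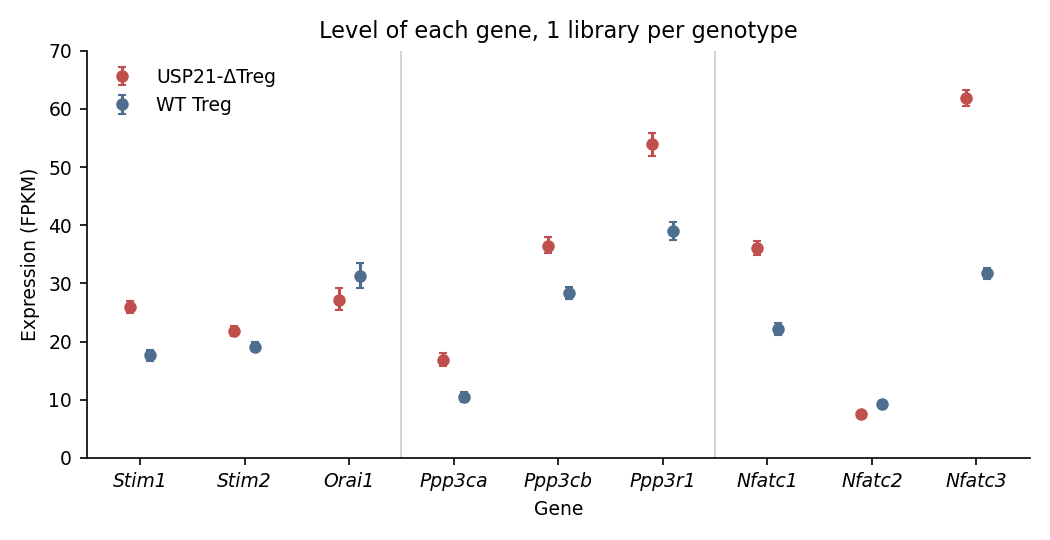
FPKM (vertical axis) of the 9 genes in the library of USP21-ΔTreg cells (left point of each gene) and of WT Treg cells (right point), with bars for the 95% Poisson interval of the fragment number. *Nfatc3* has the widest gap, with 61.9 and 31.7 FPKM, while *Orai1* and *Nfatc2* stand lower in USP21-ΔTreg cells.

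Promoters are shown for NFAT, STIM and ORAI paralogs whose ratio differed between the libraries, so that each pair can be read side by side. The design had planned promoters only where genes move together. *Nfatc1* to *Nfatc2* and *Ppp3ca* to *Ppp3cb* differed too, but *Nfatc1* and *Ppp3ca* had no promoter entry, so these pairs are not shown. The stretch from 250 to 61 bases before the RefSeq start on GRCm38.p6 was searched on both strands for GGAAA, the core of NFAT sites. Each match is in capitals (as GGAAA or its reverse complement TTTCC).
Nfatc3, chr8:106059340-106059529, plus strand: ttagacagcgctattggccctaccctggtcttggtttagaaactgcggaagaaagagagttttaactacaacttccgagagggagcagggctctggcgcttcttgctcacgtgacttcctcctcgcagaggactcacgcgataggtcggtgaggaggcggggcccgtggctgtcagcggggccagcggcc
Nfatc2, chr2:168601718-168601907, minus strand: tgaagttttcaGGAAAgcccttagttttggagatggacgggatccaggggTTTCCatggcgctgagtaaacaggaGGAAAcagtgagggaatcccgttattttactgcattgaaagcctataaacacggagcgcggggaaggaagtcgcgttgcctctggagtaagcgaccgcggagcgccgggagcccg
Stim1, chr7:102267569-102267758, plus strand: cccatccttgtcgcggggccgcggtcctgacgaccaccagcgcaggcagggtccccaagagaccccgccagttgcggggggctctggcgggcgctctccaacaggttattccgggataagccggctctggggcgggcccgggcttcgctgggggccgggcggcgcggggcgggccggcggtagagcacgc
Stim2, chr5:53998273-53998462, plus strand: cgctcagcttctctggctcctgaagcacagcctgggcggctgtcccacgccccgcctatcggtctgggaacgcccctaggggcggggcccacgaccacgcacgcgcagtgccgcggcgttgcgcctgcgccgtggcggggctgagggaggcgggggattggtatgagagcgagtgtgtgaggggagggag
Orai2, chr5:136170717-136170906, minus strand: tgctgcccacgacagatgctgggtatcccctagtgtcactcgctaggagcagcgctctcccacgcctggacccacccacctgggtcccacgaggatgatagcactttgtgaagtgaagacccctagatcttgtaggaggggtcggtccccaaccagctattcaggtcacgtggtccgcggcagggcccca
Orai1, chr5:123014824-123015013, plus strand: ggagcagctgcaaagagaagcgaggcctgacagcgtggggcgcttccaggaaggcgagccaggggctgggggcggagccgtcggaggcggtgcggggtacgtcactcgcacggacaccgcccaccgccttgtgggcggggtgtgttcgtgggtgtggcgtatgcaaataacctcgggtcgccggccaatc

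The stretch of *Nfatc2* held 3 matches, and those of *Nfatc3*, *Stim1*, *Stim2*, *Orai2* and *Orai1* held none. That of *Nfatc3* lies before its RefSeq start but inside the wider span that GENCODE gives the gene. Of the 7 genes among the 9 with an entry in the promoter table, *Nfatc2* and *Ppp3cb* had a match (3 in each). At least 1 match was present in 46.9% of all 32851 stretches of the same length. ETS and NF-κB factors read part of the same letters. The GC content of the stretches shown was 54.7% for *Nfatc2*, 59.5% for *Nfatc3*, 61.6% for *Orai2*, 68.9% for *Orai1*, 72.1% for *Stim2* and 75.8% for *Stim1*. A match of letters is a description and does not show that a factor binds.

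*Stim1*, the sensor that responds to strong store depletion, stood at 26.0 FPKM in USP21-ΔTreg cells and 17.6 FPKM in WT Treg cells, or 2274 and 1450 fragments. The ratio of scaled counts was 1.40, with an exact 95% interval (Clopper-Pearson) of 1.31 to 1.49. Intervals here and below cover counting error only, and those of scaled-count ratios take the authors' scaling between the libraries as exact. Fragments were not counted by molecular identifier. *Stim2*, which senses smaller falls in store calcium and keeps resting calcium up, stood at 21.8 FPKM in USP21-ΔTreg cells and 19.1 FPKM in WT Treg cells. Its fragment numbers were 2427 and 2395, and the ratio of scaled counts was 0.904 (0.854 to 0.956). *Stim2* was thus above 1 on FPKM and below 1 on scaled counts. The scaling sets 1 fragment to 0.918 in USP21-ΔTreg and to 1.03 in WT Treg cells. Nearly equal fragment numbers therefore give a ratio below 1, for *Stim2* and for genes below. *Stim1* (Entrez gene 20866) lies on chromosome 7 of mm10 from 102267806 to 102437319, and *Stim2* (116873) on chromosome 5 from 53998499 to 54121057, both on the plus strand.

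A ratio of paralogs taken within a library does not depend on how the libraries were scaled to each other. It can still differ between FPKM and fragments, as it did for several pairs below. The ratio of *Stim1* to *Stim2* in FPKM was 1.19 in USP21-ΔTreg cells, against 0.922 in WT Treg cells. In fragments the odds ratio of the pair, USP21-ΔTreg over WT, was 1.55 (exact conditional interval 1.42 to 1.69). The quotient of its FPKM ratios, 1.29, lay below that interval. *Stim1* was the more abundant sensor transcript in USP21-ΔTreg cells, with 54.3% of STIM FPKM, against 48.0% in WT Treg cells. In WT Treg cells the intervals of both STIM levels overlapped, while in USP21-ΔTreg cells they did not.

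*Orai1*, the pore subunit on which calcium entry of T cells mainly depends, stood at 27.2 FPKM in USP21-ΔTreg cells and 31.3 FPKM in WT Treg cells. The Poisson intervals of these levels, 25.4 to 29.2 FPKM in USP21-ΔTreg cells and 29.2 to 33.5 FPKM in WT Treg cells, touched at this rounding. With 817 and 836 fragments its ratio of scaled counts was 0.871 (0.790 to 0.961), and its log2 ratio was −0.20 on both scales. *Orai1* (109305) lies on chromosome 5 from 123015074 to 123030456 on the plus strand. The other ORAI genes are not among the 9 and complete the family. *Orai2*, whose product lowers calcium entry when it joins channels of mouse T cells, stood at 54.0 FPKM in USP21-ΔTreg cells and 21.0 FPKM in WT Treg cells. The ratio of its scaled counts was 2.47 (2.34 to 2.61), and its log2 ratio was 1.36 on FPKM and 1.30 on scaled counts. *Orai3*, named to complete the family after its values were seen, stood at 23.0 FPKM in USP21-ΔTreg cells and 16.7 FPKM in WT Treg cells.

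*Orai1* thus made up 26.1% of the ORAI FPKM in USP21-ΔTreg cells, against 45.4% in WT Treg cells, and *Orai2* 51.8% against 30.4%. The ratio of *Orai2* to *Orai1*, a pair added after its values were seen, was 1.98 in USP21-ΔTreg cells, against 0.670 in WT Treg cells, with an odds ratio of fragments of 2.83 (2.53 to 3.17). The most abundant ORAI transcript was therefore *Orai2* in the USP21-ΔTreg library and *Orai1* in the WT library. The ratio of *Orai1* to *Stim1* was 1.05 in USP21-ΔTreg cells, against 1.78 in WT Treg cells, with an odds ratio of 0.623 (0.554 to 0.702). *Orai1* and *Stim1* thus stood at nearly the same FPKM in the USP21-ΔTreg library, while in the WT library *Orai1* was the higher one.

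**Figure D2:**
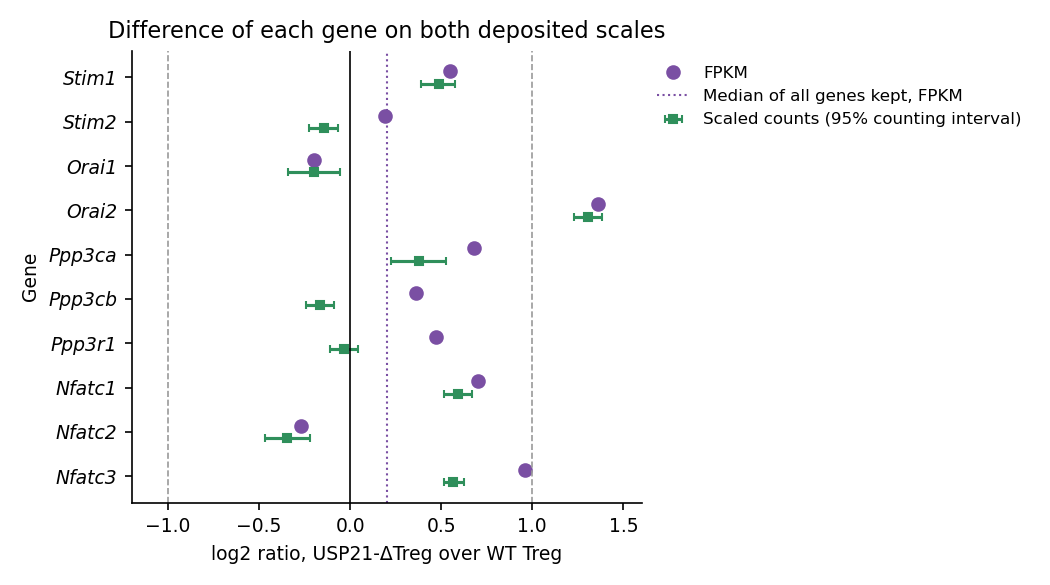
Log2 ratio, USP21-ΔTreg over WT Treg, of the 9 genes and *Orai2* on FPKM (circles) and on scaled counts (squares, with the 95% counting interval). Dashed lines mark 2-fold and the dotted line the FPKM median of all genes kept, 0.20. *Orai2* alone lies past 2-fold, and *Ppp3cb*, *Ppp3r1* and *Stim2* lie on opposite sides of 0 on the 2 scales.

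Calcineurin genes stood higher in USP21-ΔTreg cells on FPKM, but of them only *Ppp3ca* did so on scaled counts. *Ppp3ca*, which encodes the Aα catalytic subunit, had 16.9 FPKM in USP21-ΔTreg cells and 10.5 FPKM in WT Treg cells, or 861 and 592 fragments. The Poisson intervals of its levels, 15.8 to 18.0 FPKM in USP21-ΔTreg cells and 9.63 to 11.3 FPKM in WT Treg cells, did not overlap. Its ratio of scaled counts was 1.30 (1.17 to 1.44). *Ppp3ca* (19055) lies on chromosome 3 from 136670124 to 136937727 on the plus strand, and *Ppp3cb* (19056) on chromosome 14 from 20499364 to 20546573 on the minus strand. *Ppp3cb*, which encodes the Aβ subunit, the main catalytic form of T cells, had 36.5 FPKM in USP21-ΔTreg cells and 28.4 FPKM in WT Treg cells. Its fragments were nearly equal in number, 2781 and 2782, and through the authors' scaling its ratio of scaled counts was 0.891 (0.845 to 0.940). *Ppp3r1*, the gene of the regulatory B subunit that every calcineurin dimer of T cells needs, had 53.9 FPKM in USP21-ΔTreg cells and 39.0 FPKM in WT Treg cells. Its ratio of scaled counts was 0.976 (0.925 to 1.03), an interval that holds 1.

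*Ppp3ca* and *Ppp3cb* together had 0.991 times the FPKM of *Ppp3r1* in USP21-ΔTreg cells, against 0.996 times in WT Treg cells, with an odds ratio of fragments of 0.987 (0.919 to 1.06). Within the catalytic subunits the ratio of *Ppp3ca* to *Ppp3cb* was 0.462 in USP21-ΔTreg cells, against 0.369 in WT Treg cells, with an odds ratio of 1.45 (1.29 to 1.64). The remaining catalytic gene, *Ppp3cc*, had 31.3 FPKM in USP21-ΔTreg cells and 27.3 FPKM in WT Treg cells, a ratio of scaled counts of 0.977 (0.907 to 1.05). With *Ppp3cc* included, the catalytic genes summed to 84.7 FPKM in USP21-ΔTreg cells and 66.1 FPKM in WT Treg cells, above the 53.9 and 39.0 FPKM of *Ppp3r1*. Of the calcineurin A transcripts measured in FPKM, *Ppp3cb* had 43.1% in USP21-ΔTreg cells, against 42.9% in WT Treg cells, while *Ppp3ca* had 19.9% and 15.8% and *Ppp3cc* 37.0% and 41.3%. *Ppp3r1* (19058, chromosome 11, 17159263 to 17200375, plus strand) shares 14.3% of its exonic bases with *Wdr92* on the same strand, so fragments there cannot be told apart.

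The NFAT genes parted from each other. *Nfatc3*, whose product is one of the NFAT proteins of thymocytes and mature T cells, had 61.9 FPKM in USP21-ΔTreg cells and 31.7 FPKM in WT Treg cells. It was the member closest to the 2-fold limit, with an FPKM ratio of 1.95, but its ratio of scaled counts was 1.48 (1.43 to 1.54) from 7900 and 4750 fragments. *Nfatc1* (18018), an NFAT gene that is itself induced by NFAT in activated lymphocytes, had 36.1 FPKM in USP21-ΔTreg cells and 22.2 FPKM in WT Treg cells. Its 3661 and 2165 fragments gave a ratio of scaled counts of 1.51 (1.43 to 1.59), so both genes were higher by nearly the same factor on counts. *Nfatc2*, which encodes an NFAT protein that is present in resting T cells and acts with FOXP3 at cytokine genes, had 7.57 FPKM in USP21-ΔTreg cells and 9.18 FPKM in WT Treg cells. It had 997 and 1130 fragments and a ratio of scaled counts of 0.787 (0.722 to 0.857), the lowest of the 9. The Poisson intervals of its levels were 7.11 to 8.05 FPKM in USP21-ΔTreg cells and 8.65 to 9.73 FPKM in WT Treg cells, and did not overlap.

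The ratio of *Nfatc1* to *Nfatc2* was 4.76 in USP21-ΔTreg cells, against 2.42 in WT Treg cells, with an odds ratio of fragments of 1.92 (1.73 to 2.12). For *Nfatc3* to *Nfatc2* the ratios were 8.18 in USP21-ΔTreg cells, against 3.45 in WT Treg cells, with an odds ratio of 1.88 (1.72 to 2.07). For *Nfatc1* to *Nfatc3* they were 0.583 in USP21-ΔTreg cells, against 0.700 in WT Treg cells, but the odds ratio of fragments was 1.02 (0.953 to 1.08), so this pair differed on FPKM alone. *Nfatc2* made up 7.17% of the FPKM of the NFAT genes in USP21-ΔTreg cells, against 14.6% in WT Treg cells. *Nfatc3* had the largest share in both libraries, 58.6% and 50.2%. *Nfatc3* (18021) lies on chromosome 8 from 106058840 to 106130537 on the plus strand, and 1.87% of its exonic bases overlap *Esrp2* on the opposite strand. *Nfatc2* (18019) lies on chromosome 2 from 168476410 to 168601657 on the minus strand. The methods describe a stranded kit and the labels the TruSeq RNA kit, so whether strands were kept apart in counting is unclear.

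**Figure D3:**
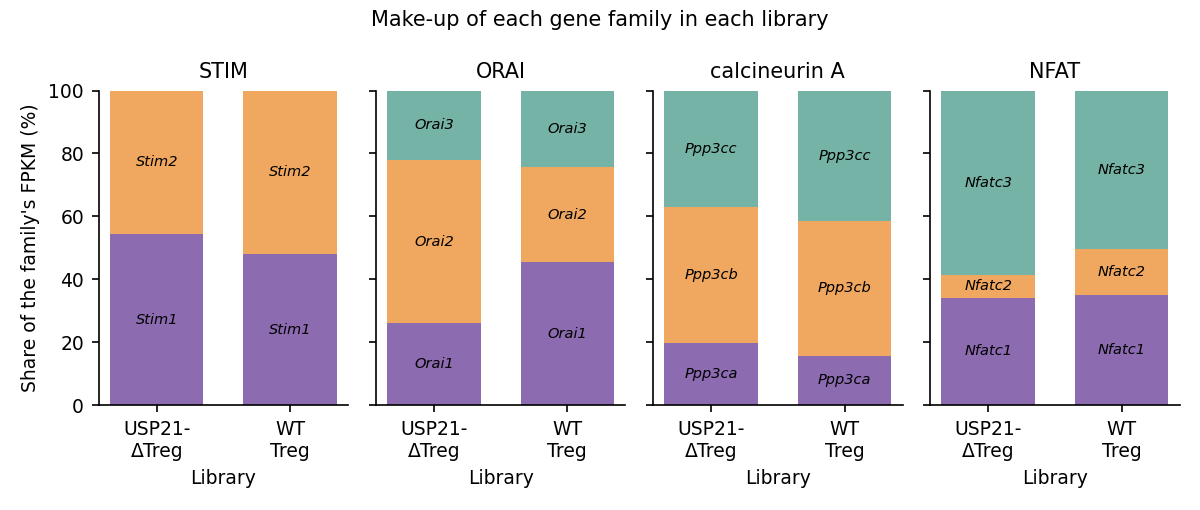
Share of each family's summed FPKM (vertical axis, %) that each gene held in the library of USP21-ΔTreg cells (left bar) and of WT Treg cells (right bar), for STIM, ORAI, calcineurin A and the calcineurin-dependent NFAT genes. *Orai2* has 51.8% and 30.4% of ORAI, and *Nfatc2* 7.17% and 14.6% of NFAT.

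By FPKM, which allows for transcript length, the order of the 9 genes differed between the libraries. In USP21-ΔTreg cells *Nfatc3* was highest, ahead of *Ppp3r1* at 53.9 FPKM, and then came *Ppp3cb*, *Nfatc1*, *Orai1*, *Stim1*, *Stim2*, *Ppp3ca* and *Nfatc2*. Counting intervals overlapped there between *Ppp3cb* and *Nfatc1* and between *Orai1* and *Stim1*. In WT Treg cells *Ppp3r1* was highest at 39.0 FPKM, followed by *Nfatc3*, *Orai1*, *Ppp3cb*, *Nfatc1*, *Stim2*, *Stim1*, *Ppp3ca* and *Nfatc2*. Intervals overlapped between *Nfatc3* and *Orai1*, *Orai1* and *Ppp3cb*, *Stim2* and *Stim1*, and *Ppp3ca* and *Nfatc2*. The lowest place belonged to *Nfatc2* in both libraries.

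Genes around this core were described by lists. These were written with earlier results of these data known, so their counts support no direction. Only genes that passed the filter of 1 FPKM were counted. Of 7 such channels and regulators of store-operated entry other than the 9 genes (8 in the list), 3 passed 2-fold upwards in USP21-ΔTreg cells on FPKM and none passed it downwards (median 0.58), beside 7.78% and 6.20% of all genes. On scaled counts 2 of the 7 passed it upwards, beside 4.34% of all genes. Besides *Orai2* these were *Efcab4b*, which encodes CRACR2A, a cytosolic protein that steadies the STIM1 and ORAI1 complex, and *Ahnak*, a very large scaffold protein linked to calcium signals in T cells. *Efcab4b* had 6.60 FPKM and 226 fragments in USP21-ΔTreg cells, against 2.47 FPKM and 82 fragments in WT Treg cells. *Ahnak* had 194 FPKM in USP21-ΔTreg cells and 82.8 FPKM in WT Treg cells, and on scaled counts its log2 ratio of 0.96 was short of 2-fold. *Tmem66* (also called *Saraf*), a brake on store-operated entry, had 265 FPKM in USP21-ΔTreg cells and 177 FPKM in WT Treg cells, a log2 ratio of 0.58.

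Of 12 genes of calcium release, pumps and mitochondrial uptake (13 in the list) none was 2-fold apart, and the median was 0.30. The most abundant were *Plcg1*, which encodes the phospholipase that starts calcium release after receptor engagement (log2 ratio 0.44), and *Atp2a3*, a pump that refills the store (0.60). *Atp2a2*, another pump gene of this list named after its values were seen, went the other way. Its log2 ratio of −0.41 was the lowest of the 12, of which 10 were above 0 on FPKM. All 4 ion channels that set the driving force for calcium were above 0, and none reached 2-fold. The potassium channel genes *Kcnn4* and *Kcna3* had log2 ratios of 0.44 and 0.55 on FPKM and of 0.50 and 0.58 on scaled counts.

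Calmodulin and calcineurin inhibitors had a median of −0.05, and none of 9 (11 in the list) was 2-fold apart. *Ppia*, which encodes cyclophilin A, the partner through which cyclosporin blocks calcineurin, had 1441 FPKM in USP21-ΔTreg cells and 2448 FPKM in WT Treg cells (log2 ratio −0.76). *Calm2*, a calmodulin gene, had 230 and 238 FPKM in USP21-ΔTreg and WT Treg cells. The calmodulin genes resemble each other in sequence and *Ppia* has many pseudogenes, so these values are uncertain. Chosen after their values were seen, *Rcan3*, an inhibitor of calcineurin, had a log2 ratio of −0.77, and *Rcan1*, an inhibitor that NFAT itself induces, one of 0.24. Of 9 NFAT kinases and export genes (11 in the list) none was 2-fold apart on FPKM. *Xpo1*, which encodes the exportin that carries NFAT out of the nucleus, had 60.9 FPKM in USP21-ΔTreg cells and 84.5 FPKM in WT Treg cells, and on scaled counts it was past 2-fold lower (−1.03). *Csnk1a1*, a kinase that keeps NFAT in the cytoplasm, had a log2 ratio of 0.28 on FPKM but −0.11 on scaled counts. Of the further NFAT genes, *Nfat5*, which calcineurin does not control, had log2 ratios of 0.16 on FPKM and −0.26 on scaled counts. *Nfatc2ip*, which encodes an NFAT-interacting protein, had 0.64 on FPKM and 0.41 on scaled counts.

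Known NFAT targets of T cells had log2 ratios spread from −3.12 to 1.02. Of 14 targets that passed the filter (20 in the list), 7 passed 2-fold downwards in USP21-ΔTreg cells, 1 passed it upwards and 6 did neither, with a median of −0.80. On scaled counts the same list had 7 lower and 0 higher, with a median of −1.10. Over all genes 6.20% were lower and 7.78% higher on FPKM, and 7.93% lower and 4.34% higher on scaled counts. However, several targets were known from earlier results when the list was written, so the list supports no direction. The lower genes were *Il2ra* (log2 ratio −3.12), which encodes CD25, the protein the sort gated on, the cytokine gene *Tnf* (−2.65), the orphan receptor genes *Nr4a3* (−2.32) and *Nr4a1* (−1.76), *Tnfrsf9* (−2.02), *Ifng* (−1.15) and *Cd69* (−1.07). *Pdcd1*, which encodes the inhibitory receptor PD-1, was higher with 304 FPKM in USP21-ΔTreg cells and 149 FPKM in WT Treg cells (log2 ratio 1.02), but was short of 2-fold on scaled counts (0.94). *Ctla4* had a log2 ratio of 0.04 on FPKM and −0.34 on scaled counts. *Il2* itself was below the filter, with 3 fragments in USP21-ΔTreg cells, against 31 in WT Treg cells. These genes answer to many other signals, and NFAT activity was not measured here.

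**Figure D4:**
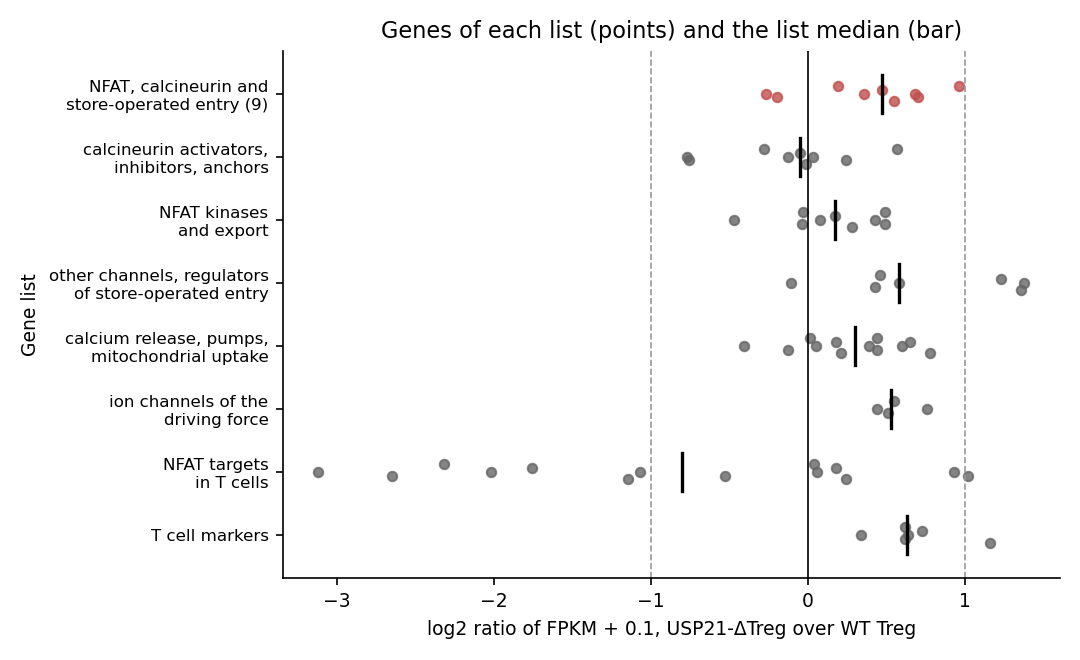
Log2 ratio (USP21-ΔTreg over WT Treg, after adding 0.1 FPKM) of the genes averaging 1 FPKM or more, drawn as points. Shown are the 9-gene set, 6 of the lists of pathway genes and the T cell markers. A bar marks the list median, and dashed lines mark 2-fold. The 9 genes lie from −0.27 to 0.96, and the NFAT targets from −3.12 to 1.02.

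The libraries were of like depth, with 23418522 fragments assigned to genes for USP21-ΔTreg cells, against 23198432 for WT Treg cells. All 6 T cell markers (*Cd3e*, *Cd3d*, *Cd3g*, *Cd4*, *Cd5* and *Cd6*) were above 0 on both scales, with log2 FPKM ratios from 0.34 to 1.16. Their medians were 0.63 on FPKM and 0.52 on scaled counts, a scale on which the 9 genes lay from −0.35 to 0.59. Of the 4 Treg markers, 2 were above 0 on FPKM and none on scaled counts. *Foxp3* had 55.2 FPKM in USP21-ΔTreg cells and 91.8 FPKM in WT Treg cells, *Ikzf2* had log2 ratios of 0.24 on FPKM and −0.23 on scaled counts, and *Il2ra* and *Ctla4* are given above. The summed FPKM of 7 B cell markers was 28.6 in USP21-ΔTreg cells, against 11.6 in WT Treg cells. Of the 5 that passed the filter, 4 passed 2-fold upwards on FPKM, beside 7.78% of all genes. The sums for NK and CD8 T cell markers were 62.0 and 23.7, and for myeloid markers 50.6 and 24.6, each in USP21-ΔTreg and then WT Treg cells. Past 2-fold upwards, beside the same share of all genes, were 2 of 6 NK and CD8 T cell markers kept and 2 of 3 myeloid ones. Erythroid markers summed to 63.8 and 24.7 FPKM but were split, with a median of −0.49. Of the 4 that passed the filter, 2 were past 2-fold upwards (*Hba-a1* and *Hbb-b2*) and 2 downwards (*Hbb-b1* and *Hba-a2*). Over all genes 7.78% were past it upwards and 6.20% downwards. These globin genes are near-identical copies, so their separate values are uncertain. Platelet markers summed to 2.14 and 1.40. Of their defining genes *Pf4* and *Ppbp* were at 0 in WT Treg cells, but had only 3 and 1 fragments in USP21-ΔTreg cells. No B cell, NK, myeloid or erythroid marker was at 0 in either library. Their part in the levels of the 9 genes was not tested. In bulk RNA a different share of cells and a different amount of RNA per cell cannot be told apart.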

How the data were processed

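RNA from sorted Treg cells of both genotypes was sequenced. The authors filtered out reads of rRNA, adaptors and low quality, aligned what was left to mm10 by TopHat2 2.0.9 and ran Cufflinks 2.1.1 (versions as in the submitters' processing notes and the methods). The deposited FPKM values are per transcript length and library size. The deposited estimated counts had been scaled between the libraries by the authors and are not raw. The commonest value above 0, 0.918 in USP21-ΔTreg and 1.03 in WT Treg cells, was taken as 1 fragment, and 96.2% and 97.2% of the values above 0 were then whole within 0.02. The design was written for both scales, with FPKM as the main one.

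Ratios used FPKM + 0.1, or scaled counts with 1 fragment added, for the 10948 of 16830 genes averaging 1 FPKM or more. A gene counted as higher or lower at 2-fold, the limit of the study. Intervals are 95% Clopper-Pearson (scaled-count ratios), Poisson (levels) and exact conditional (odds ratios), from Python 3.11.15, numpy 2.4.6, pandas 2.3.3 and scipy 1.17.1, with figures from matplotlib 3.10.9. The fold limit on counts and the interval of count ratios were tested on simulated Poisson counts of equal depth. FPKM ratios, the value of 1 fragment and the other intervals were not tested in this way. GENCODE M21, on the same assembly, gave positions, transcript lengths and GC content, and RefSeq the promoters. Spreadsheet dates stood in place of 23 gene symbols, none of a gene named here. The 9 genes, the lists and the alternatives were chosen with earlier results of these data known. Named were the 9 genes, *Usp21* and *Foxp3*, and from each list of pathway genes those past 2-fold and the 2 with the highest mean FPKM. Cell type markers were planned as lists only, with defining ones at 0 named. The T cell and Treg markers and the erythroid ones past 2-fold were named beyond that plan. *Orai3*, *Rcan1*, *Rcan3*, *Atp2a2* and *Il2* were added after their values were seen. Protein sequences were not used here. The alternatives were other pseudocounts, filters, fold limits, median centring, upper quartile scaling and scaled counts.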

Additional observations from a re-analysis of the deposited data

How the results depend on the processing

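With 1 library per genotype the precision is limited to counting error, and variation between mice is not known. No paired analysis was possible because there was a single library of each genotype, and no replicate could be left out. None of the 9 genes passed 2-fold in either direction under any pseudocount, filter or scaling tried, nor at 3-fold, and at 1.5-fold 3 were higher and 0 lower. The median log2 ratio of the 9 genes, 0.47, was 0.27 after median centring and −0.04 on scaled counts. *Stim2* turned below 0 under median centring, and *Ppp3cb*, *Ppp3r1* and *Stim2* did so on scaled counts. Other settings changed no sign among the 9. On scaled counts the log2 ratio of the pairs, USP21-ΔTreg over WT, was 0.63 in place of 0.37 for *Stim1* to *Stim2*, 0.54 in place of 0.33 for *Ppp3ca* to *Ppp3cb*, 0.02 in place of −0.27 for *Nfatc1* to *Nfatc3* and 0.91 in place of 1.25 for *Nfatc3* to *Nfatc2*. Of the 57 genes of the pathway lists together, 4 were at least 2-fold higher and 7 lower, beside 7.78% and 6.20% of all genes. All 7 lower ones came from the list of NFAT targets. The lists were written with earlier results known, so these counts support no direction. On scaled counts 2 were higher and 8 lower, beside 4.34% and 7.93% of all genes. Without a filter 11 were lower, among more genes than the 57, and the share of all genes was not computed for that setting. The cause of these shifts was not tested.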

Other observations

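The gap between the scales was uneven over the 9 genes. The FPKM log2 ratio exceeded that of scaled counts by 0.53 for *Ppp3cb*, 0.50 for *Ppp3r1*, 0.40 for *Nfatc3*, 0.33 for *Stim2* and 0.31 for *Ppp3ca*. It did so by at most 0.11 for *Nfatc1*, *Nfatc2*, *Stim1* and *Orai1*. The median gap over all genes kept was 0.19, and a larger gap than that of *Ppp3cb* was found in 1.88% of them and a larger gap than that of *Ppp3r1* in 3.22%. The longest transcripts of the 5 genes with the wider gap had a GC content of 39.8% (*Ppp3cb*), 41.4% (*Ppp3r1*), 45.4% (*Ppp3ca*), 45.9% (*Nfatc3*) and 47.4% (*Stim2*). Those of the others had 53.7% (*Nfatc1*), 54.5% (*Stim1*), 55.3% (*Nfatc2*) and 58.6% (*Orai1*), and the median over genes kept was 49.4%. GC content was looked at after the gap was seen. Genes of 1 table are not independent replicates, and the part of GC content or of transcript choice in the gap was not tested.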
